A study of Oryza sativa Indica Group with 10 samples.

Results

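Transcript levels of 6 rice genes of the photosystems and their light-harvesting antenna were followed in seedlings with raised or lowered OsbZIP48. The genes were taken by name. They are PSAH (LOC4339593) and PSAG (LOC4337812) of photosystem I, OEE3 (LOC4343515) and PSB28 (LOC4326537) of photosystem II, and the antenna genes LHCP (LOC4333359) and RCABP69 (LOC4343583). These are 6 of the 17905 genes that a probe set names alone, and together they had 7 of the 57258 probe sets tested, 2 for PSAG and 1 for each of the others. A probe set is a group of short oligonucleotides on the array that report on 1 transcript.

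RNA was hybridised to 10 rice arrays of the Affymetrix type, which use 1 colour, with 2 biological replicates for each of 5 groups. All seedlings were Pusa Basmati 1, an Indica cultivar, and were grown in light. In 1 group OsbZIP48 was over-expressed (OE), and it was set against seedlings with the vector B4NU. Knock-down of OsbZIP48 gave 1 group with a lethal phenotype (KD lethal) and 1 with the look of wild type (KD wild-type-like), and these were set against seedlings with pANDA, a vector for RNA interference. Which vector is the control of which transgene is not stated in the labels, nor are the promoters, the number of independent lines or the seedlings pooled per array. Age is 10 days in the labels but 7 days in the design text, and the extraction protocol speaks of roots while the tissue is labelled as whole seedling. OsbZIP48 itself was not analysed here, since no probe set is paired with it.

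Photosystem I and photosystem II are the pigment-protein complexes of the thylakoid membrane that turn light into electron flow, and a chlorophyll a/b-binding antenna feeds excitation to both. All 6 genes studied here lie in the nucleus, and their proteins are imported into the chloroplast. Expression of such genes is tied to light and to the state of the chloroplast. HY5 of Arabidopsis, to which OsbZIP48 is related, is a bZIP transcription factor that promotes seedling development in light and binds promoters of photosynthesis genes.

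Signals are given on the log2 scale of the deposited values, so that a difference of 1 is a 2-fold difference. Their level cannot be set against that of another gene. The lowest value was 2.440 in OE and B4NU and 2.441 in the other groups, and the highest values were 13.07 to 13.48. Values within 0.5 of the lowest are called the floor. Between 65.7% and 68.9% of the probe sets of an array were at the floor. Above its lowest value, any array of OE or B4NU shared 8620 to 12892 identical values with the others of that set, as did the KD and pANDA arrays among themselves, whereas 0 were shared across the sets, so these may have been normalized separately. Replicates correlated across probe sets at r = 0.950 in OE, 0.998 in B4NU, 0.981 in KD lethal, 0.993 in KD wild-type-like and 0.997 in pANDA. Averaged over ubiquitin, GAPDH, actin and cyclophilin, the 3' probe set exceeded the middle one by 0.77 to 1.70 on 8 arrays, but by 0.01 in the first OE replicate and 0.30 in the second KD lethal replicate. These 2 arrays stood apart, and results that rest on them are also given without them.

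The comparison of KD lethal with pANDA asks how these genes differ when the knock-down has a lethal phenotype. In 5 of the genes, PSAH, OEE3, PSB28, LHCP and RCABP69, the signal was lower in KD lethal, by 5.56-fold to 18.6-fold, whereas in PSAG it was not. A gene was called when limma gave an adjusted p under 0.05, two-sided and with the Benjamini-Hochberg adjustment over the whole table. By this rule 5 of 6 genes were called lower and 0 higher, beside 5.4% of all probe sets called lower and 6.83% called higher. Here and below, shares and medians over all probe sets include those at the floor, which can hardly fall. When limma was run on the 19367 probe sets with a mean above the floor, 8640 were called in either direction. The same 5 genes were among them. In these 5 both KD lethal arrays lay below both pANDA arrays, as in 17.5% of all probe sets. The median difference over the 6 genes was -3.61, and over all probe sets it was 0.00. In whole seedlings, fewer cells of a type and less RNA per cell cannot be told apart.

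In photosystem I, PSAH encodes a small subunit that in Arabidopsis is needed for the docking of the mobile antenna during state transitions. Its signal was 6.98 and 8.27 on the KD lethal arrays, against 11.31 and 11.38 on the pANDA arrays. Both KD lethal arrays lay far below both pANDA arrays and 1.29 apart from each other. The difference was -3.72 ± 0.53 (log2, SE), a 13.2-fold lower signal with a 95% interval of 5.24 to 33.2, and the adjusted p was 0.0101 with limma.

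PSAG encodes a photosystem I subunit that in Arabidopsis helps to hold the antenna at the reaction centre. Its brighter probe set read 5.87 and 6.08 in KD lethal, against 5.62 and 5.48 in pANDA. The KD lethal arrays were thus the higher ones, as in 20.4% of all probe sets, and the difference of 0.42 ± 0.27 was not called (limma adjusted p = 0.516). Its 95% interval, -0.25 to 1.10, does not hold the size of the fall seen for any of the other genes. The second PSAG probe set read 2.44 on all 4 of these arrays, which is the floor, so it gives no order. The brighter one lay between 5.48 and 6.38 on every array of every group, the vector controls included. Whether either probe set detects the PSAG transcript was not tested, so the lack of a fall is stated for the signal only.

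In photosystem II, OEE3 encodes an extrinsic protein of the oxygen-evolving complex, which shields the water-splitting site. It read 8.58 and 9.66 in KD lethal, against 12.68 and 12.56 in pANDA. The groups were well apart, and the signal was 11.3-fold lower in KD lethal (95% interval 5.76 to 22.2, limma adjusted p = 0.00433).

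PSB28 encodes a protein that in cyanobacteria takes part in the assembly of photosystem II. It read 4.98 and 4.58 in KD lethal, against 8.97 and 8.97 in pANDA. Of the 5 genes that fell, it was the 1 whose KD lethal replicate 2 was the lower of the pair. The difference was -4.19 ± 0.50, an 18.2-fold lower signal (95% interval 7.68 to 43.3, limma adjusted p = 0.00541).

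LHCP and RCABP69 encode chlorophyll a/b-binding proteins of the antenna. LHCP read 9.59 and 10.87 in KD lethal, against 12.83 and 12.58 in pANDA, which left its signal at 18.0% of the pANDA level, the smallest of the 5 falls (5.56-fold, 95% interval 2.77 to 11.2, limma adjusted p = 0.0155). RCABP69 read 7.22 and 8.17 in KD lethal, against 11.92 and 11.90 in pANDA. The signal was 18.6-fold lower in KD lethal (95% interval 10.3 to 33.5, limma adjusted p = 0.00149). Its fall and that of PSB28 have no settled order: without KD lethal replicate 1 the difference was -3.74 for RCABP69 and -4.39 for PSB28. The RCABP69 probe set has the suffix that Affymetrix gives to sets whose oligonucleotides match more than 1 transcript, so related antenna genes may add to its signal.

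**Figure D1:**
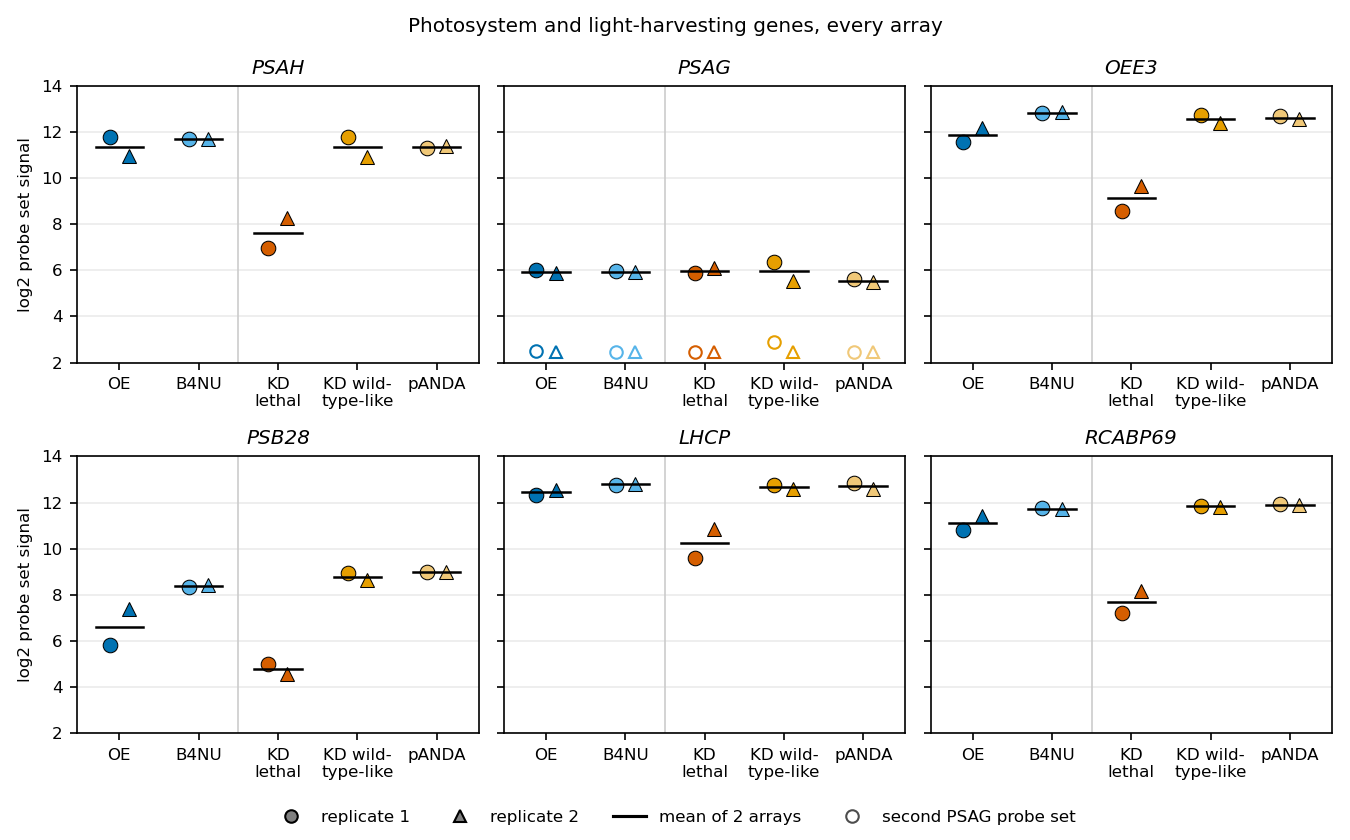
Log2 probe set signal (vertical axis) of the 6 genes on every array, by group (horizontal axis), with circles for replicate 1, triangles for replicate 2 and a line at the mean of the 2 arrays. Open symbols are the second PSAG probe set, which is at 2.44 in KD lethal and pANDA. In PSAH, OEE3, PSB28, LHCP and RCABP69 both KD lethal arrays lie below all other arrays, whereas PSAG lies between 5.48 and 6.38 throughout.

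Both KD lethal arrays showed these falls. With KD lethal replicate 1 alone (without replicate 2) the PSAH difference from pANDA was -4.37, and with replicate 2 alone it was -3.07. For LHCP these values were -3.12 and -1.83. The 5 genes stayed lower in KD lethal without either KD lethal array, and also without OE replicate 1 and KD lethal replicate 2 together. These fits leave KD lethal with 1 array, so they do not measure its spread. The calls draw on a spread estimated from all 10 arrays: when the 4 KD lethal and pANDA arrays were fitted by themselves, PSB28 alone was called (limma adjusted p = 0.0319) and the others ranged from 0.0776 for RCABP69 to 0.228 for LHCP. Without pANDA replicate 1 or 2, PSAH (limma adjusted p = 0.0526 and 0.0570) and LHCP (0.0820 and 0.0651) lost their calls.

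Marker genes of tissues moved in KD lethal as well. Of 2 green-shoot markers, 2 were called lower than in pANDA: RBCS by -4.12 ± 0.09 (limma adjusted p = 3.58e-05) and RCA, the Rubisco activase gene, by -2.91 ± 0.44 (0.0125). Summed on the linear scale, the 2 markers reached 446 to 621 in KD lethal, against 7070 to 7280 in pANDA. Of 9 root-linked transport and iron-uptake genes, 6 were called lower and 0 higher. Their summed signal was 83.9 to 85.1 in KD lethal, against 2130 to 2140 in pANDA, and 5 of the 9 were at the floor in KD lethal, against 2 in pANDA. The silicon transporter gene Lsi1 differed by -5.03 ± 0.18 (limma adjusted p = 0.000137). None of the 7 seed storage genes was called in KD lethal, and 5 were at the floor there, against 4 in pANDA. On the vector arrays both green-shoot markers and 7 of the 9 root genes were above the floor. The part of tissue make-up in the differences of the 6 genes was not tested.

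Among all 57258 probe sets ordered from the most negative KD lethal difference, RCABP69 stood at place 166, PSB28 at 172, PSAH at 301, OEE3 at 381, LHCP at 1042 and PSAG at 48993. The position of a probe set within its own array needs no scaling between arrays. PSB28 stood at percentile 82.3 and 80.7 of all probe sets in KD lethal, against 98.1 and 98.1 in pANDA. PSAH stood at 93.2 and 97.2 in KD lethal, against 99.8 and 99.8 in pANDA. RCABP69 stood at 94.1 and 97.0 in KD lethal, against 99.9 and 99.9 in pANDA. On this measure too both KD lethal arrays lay below both pANDA arrays. The 3 genes kept a place above most probe sets, but 66.6% and 67.9% of probe sets were at the floor on the KD lethal arrays.

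**Figure D2:**
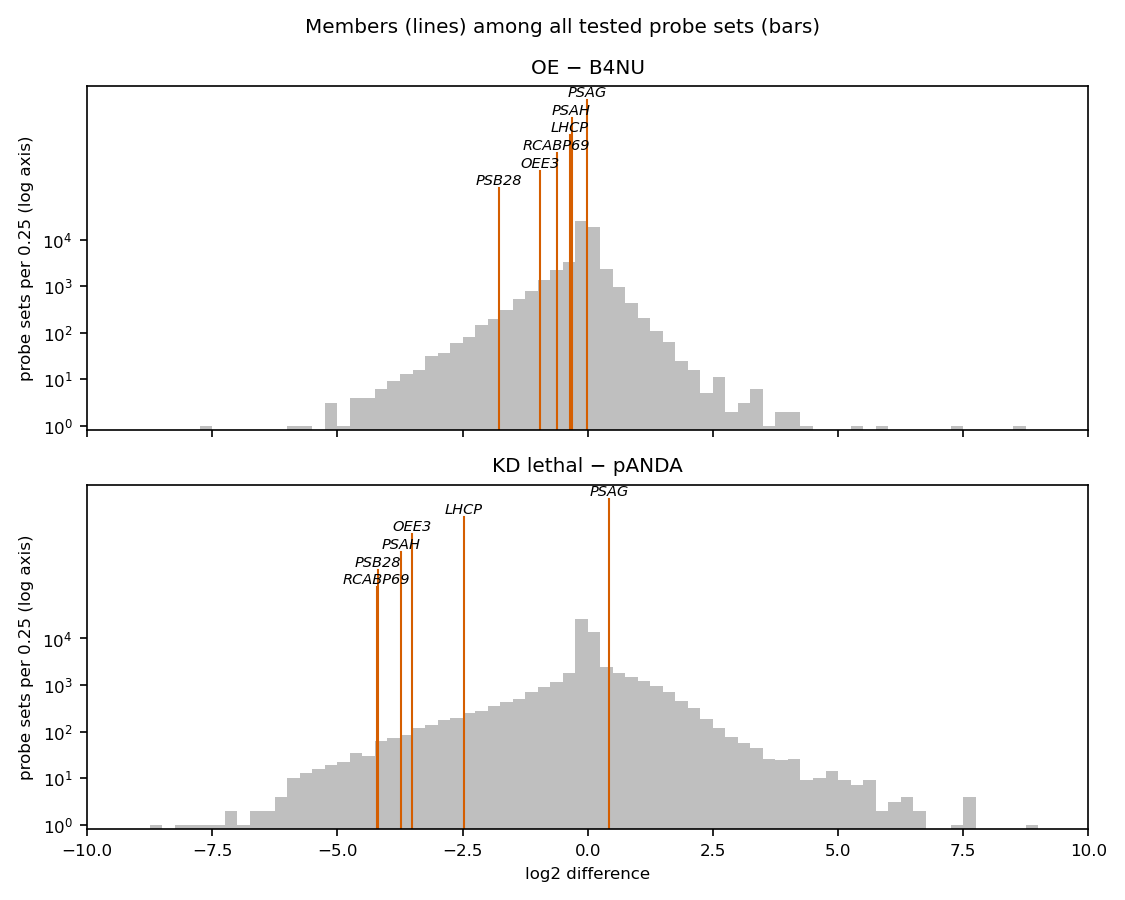
Number of probe sets (vertical axis, log scale) by log2 difference (horizontal axis, bins of 0.25) for OE minus B4NU above and KD lethal minus pANDA below, over 57258 probe sets, with a line at each of the 6 genes whose height carries no value. In KD lethal 5 lines lie between -4.22 and -2.47 and PSAG lies at 0.42, whereas in OE the 6 lines lie between -1.77 and -0.01.

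The 2 knock-down phenotypes were also set against each other, which asks how far these genes differ between knock-down seedlings with different phenotypes. The labels do not say whether the 2 groups share a line or a level of OsbZIP48. The same 5 genes were called lower in KD lethal than in KD wild-type-like, and 0 higher, beside 4.72% and 6.48% of all probe sets. This comparison and the last one share the KD lethal arrays, so they are not independent. RCABP69 read 7.22 and 8.17 in KD lethal, against 11.85 and 11.82 in KD wild-type-like, a 17.6-fold lower signal (limma adjusted p = 0.0017). PSB28 read 4.98 and 4.58 in KD lethal, against 8.95 and 8.63 in KD wild-type-like, 16.1-fold lower (limma adjusted p = 0.00678). In neither gene did the groups overlap, nor did they in PSAH, OEE3 or LHCP, and 15.3% of all probe sets had both KD lethal arrays below both KD wild-type-like arrays.

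PSAH was 13.1-fold lower in KD lethal than in KD wild-type-like (limma adjusted p = 0.0109), OEE3 10.9-fold (0.00494) and LHCP 5.42-fold (0.0175). PSAG differed by 0.02 ± 0.27 with a 95% interval of -0.66 to 0.70, and its 2 KD lethal values lay between the 2 KD wild-type-like values of 6.38 and 5.53. When the 4 arrays of these groups were fitted by themselves, 0 of the 6 genes were called by limma (adjusted p of 0.0586 for PSB28 to 0.263 for LHCP among the 5). Both green-shoot markers and 6 of the 9 root genes were called lower in this comparison too. LHCP lost its call without either B4NU array (limma adjusted p = 0.0512 each), and without KD wild-type-like replicate 1 or 2 (0.0710 and 0.0677).

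Between KD wild-type-like and pANDA seedlings the 6 differences lay between -0.18 and 0.40. By limma 0 of 6 genes were called, and 0 had an unadjusted p under 0.05, beside 0.145% of probe sets called lower and 0.0978% called higher. The median difference over the 6 genes was -0.05. PSAH read 11.77 and 10.91 in KD wild-type-like, against 11.31 and 11.38 in pANDA, so the KD wild-type-like arrays enclosed the pANDA arrays. Its interval of -1.34 to 1.32 leaves room for a change of more than 2-fold either way.

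OEE3 read 12.72 and 12.41 in KD wild-type-like, against 12.68 and 12.56 in pANDA (difference -0.05, 95% interval -1.03 to 0.92). LHCP read 12.74 and 12.59 in KD wild-type-like, against 12.83 and 12.58 in pANDA (difference -0.04, interval -1.04 to 0.97). In both the groups overlapped. RCABP69 and PSB28 were lower on both KD wild-type-like arrays than on both pANDA arrays, as were 14.7% of all probe sets, by -0.08 (interval -0.93 to 0.77) and -0.18 (interval -1.43 to 1.07). PSAG differed by 0.40 (interval -0.27 to 1.08).

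The comparison of OE with B4NU asks whether over-expression goes with other levels of the same genes. All 6 differences were negative, though PSAG was at -0.01 and turned to 0.27 with quantile normalization. Their median was -0.49 beside 0.00 over all probe sets, but 0 of 6 genes were called by limma. Differences over all probe sets leaned negative too: 2258 lay between -0.75 and -0.5, against 968 between 0.5 and 0.75. The background was 1.07% of probe sets called lower and 0.327% called higher. PSB28 alone had an unadjusted p under 0.05 (0.0141). In PSB28, OEE3, LHCP and RCABP69 both OE arrays lay below both B4NU arrays, as did 13.4% of all probe sets.

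PSB28 read 5.82 and 7.39 in OE, against 8.32 and 8.42 in B4NU. OE replicate 1, the array that stood apart, was the lower of the pair. The difference was -1.77 ± 0.50, or 3.41-fold lower, with a 95% interval of 1.43 to 8.09 and a limma adjusted p of 0.286. It was -0.99 without OE replicate 1 and -2.55 without OE replicate 2. These fits leave OE with 1 array, so they do not measure its spread. On the scale of positions within an array, PSB28 stood at percentile 90.1 and 94.4 in OE, against 96.9 and 97.0 in B4NU.

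OEE3 read 11.59 and 12.20 in OE, against 12.83 and 12.85 in B4NU, a difference of -0.95 ± 0.39 (limma adjusted p = 0.605). RCABP69 read 10.82 and 11.41 in OE, against 11.76 and 11.71 in B4NU, a difference of -0.62 ± 0.34 (limma adjusted p = 0.644). LHCP read 12.35 and 12.53 in OE, against 12.78 and 12.81 in B4NU, a difference of -0.36 ± 0.40 (limma adjusted p = 0.862). In these 3 genes OE replicate 1 was again the lower OE array. Without it the differences were -0.64 for OEE3, -0.33 for RCABP69 and -0.26 for LHCP, with 0 called by limma (adjusted p of 0.896 for OEE3).

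The photosystem I genes did not share this order. PSAH read 11.78 and 10.96 in OE, against 11.70 and 11.68 in B4NU, so the OE arrays enclosed the B4NU arrays and the interval ran from -1.66 to 1.01. PSAG read 6.0 and 5.88 in OE, against 5.95 and 5.94 in B4NU (difference -0.01, interval -0.69 to 0.67). Without the arrays that stood apart RCABP69 was called at -0.33 (limma adjusted p = 0.0221), and 0 of the other genes were. That fit has a single OE array, assumed to vary like the others.

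In OE 1 of the 2 green-shoot markers was called lower than in B4NU, RBCS by -0.70 ± 0.09 (limma adjusted p = 0.031). On other RBCS probe sets above the floor the difference was -0.72 and -0.87, not called. RCA differed by -0.25 on its brightest probe set and by -0.95, -1.48 and -1.25 on others, none called. Of the 9 root genes 1 was called lower, Lsi1, by -1.56 ± 0.18 (limma adjusted p = 0.0256). The 2 green-shoot markers summed to 5180 to 5640 in OE, against 8140 to 8330 in B4NU, and the 9 root genes to 1090 to 1990 in OE, against 1670 to 1770 in B4NU. Their part in the differences of the 6 genes was not tested here either.

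**Figure D3:**
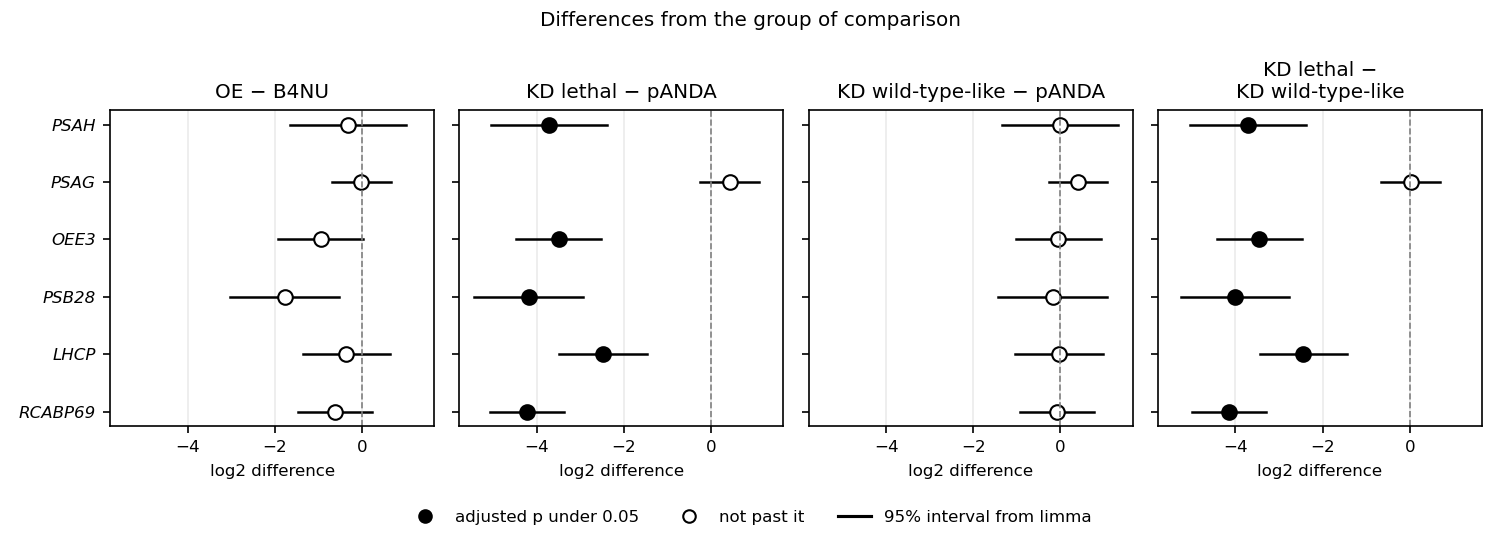
Log2 difference (horizontal axis) of each gene (rows) in 4 comparisons, with bars for limma's 95% interval and filled points for an adjusted p under 0.05. PSAH, OEE3, PSB28, LHCP and RCABP69 are filled in both comparisons of KD lethal, and 0 points are filled in OE minus B4NU or KD wild-type-like minus pANDA.

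Whether over-expression and lethal knock-down moved a gene by different amounts was tested by the difference of the differences, (OE minus B4NU) minus (KD lethal minus pANDA), whose parts share no array. RCABP69 passed, with -0.62 in OE and -4.22 in KD lethal (difference 3.59 ± 0.48, limma adjusted p = 0.0159). PSAH (difference 3.40, limma adjusted p = 0.0728), OEE3 (2.55, 0.0675), LHCP (2.12, 0.125) and PSB28 (2.42, 0.156) had differences of the same sign that did not pass. With all arrays 1 of 6 genes was called, beside 2.1% of probe sets called with that sign and 3.45% with the other. The RCABP69 call was lost without any 1 of the 4 vector arrays (limma adjusted p = 0.0533 to 0.0653). Without the 2 arrays that stood apart, the difference was 4.36 for RCABP69, 3.40 for OEE3, 2.85 for LHCP, 3.0 for PSB28 and 3.64 for PSAH. That fit has 1 OE and 1 KD lethal array, so it measures the spread of neither group. The count of calls is not firm. Over the 16 alternatives tried, RCABP69 was called in 12, OEE3 and PSB28 in 5 each, PSAH and LHCP in 4 each and PSAG in 0.

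Between the vectors the 6 differences, B4NU minus pANDA, lay between -0.60 and 0.40. This comparison crosses the 2 sets of arrays, and the vector cannot be told apart from the set. By limma 0 of 6 genes were called between B4NU and pANDA, none with an unadjusted p under 0.05, although 6.95% of probe sets were called higher in B4NU and 2.84% lower. With only the 4 vector arrays fitted, PSAH, PSB28 and RCABP69 were called. PSB28 had the difference of largest size, -0.60 ± 0.50, with 8.32 and 8.42 in B4NU against 8.97 and 8.97 in pANDA. Set against pANDA instead of B4NU, PSB28 was called lower in OE, by -2.37 (limma adjusted p = 0.0352). That comparison also crosses the 2 sets of arrays, and 7865 of all probe sets were called in it, against 802 with B4NU.

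Ordered by group mean, KD lethal came last for 5 of the genes, and its arrays did not overlap those of the next group in any of them. The mean and SD of PSB28 (n = 2 each) were 6.61 ± 1.11 in OE, 8.37 ± 0.07 in B4NU, 4.78 ± 0.28 in KD lethal, 8.79 ± 0.22 in KD wild-type-like and 8.97 ± 0.00 in pANDA. Neighbouring groups in its order did not overlap. The orders given here cross the 2 sets of arrays, which may have been normalized separately. Over all probe sets, both B4NU arrays lay below both pANDA arrays in 34% and above both in 47.2%. For OEE3 and LHCP, OE stood next above KD lethal and apart from the rest, while pANDA and KD wild-type-like overlapped. For RCABP69 no neighbours overlapped, with pANDA first, then KD wild-type-like, B4NU and OE. For PSAH the other 4 groups overlapped with their neighbours in the order. For PSAG, KD lethal came first and pANDA last, and the 4 groups other than pANDA overlapped with their neighbours.

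The spread between the 2 arrays of a group was not the same for all genes. In KD lethal, replicate 2 minus replicate 1 was 1.29 for PSAH, 1.08 for OEE3, 1.28 for LHCP and 0.96 for RCABP69, but -0.40 for PSB28 and 0.22 for PSAG. The PSAH and LHCP values lie outside the range that held 95% of probe sets above the floor, which was 1.14 either way in KD lethal. In KD wild-type-like that range was 0.73, and PSAH (-0.86) and PSAG (-0.84) lay outside it. In OE it was 1.99, and 0 of the 6 genes lay outside it.

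**Figure D4:**
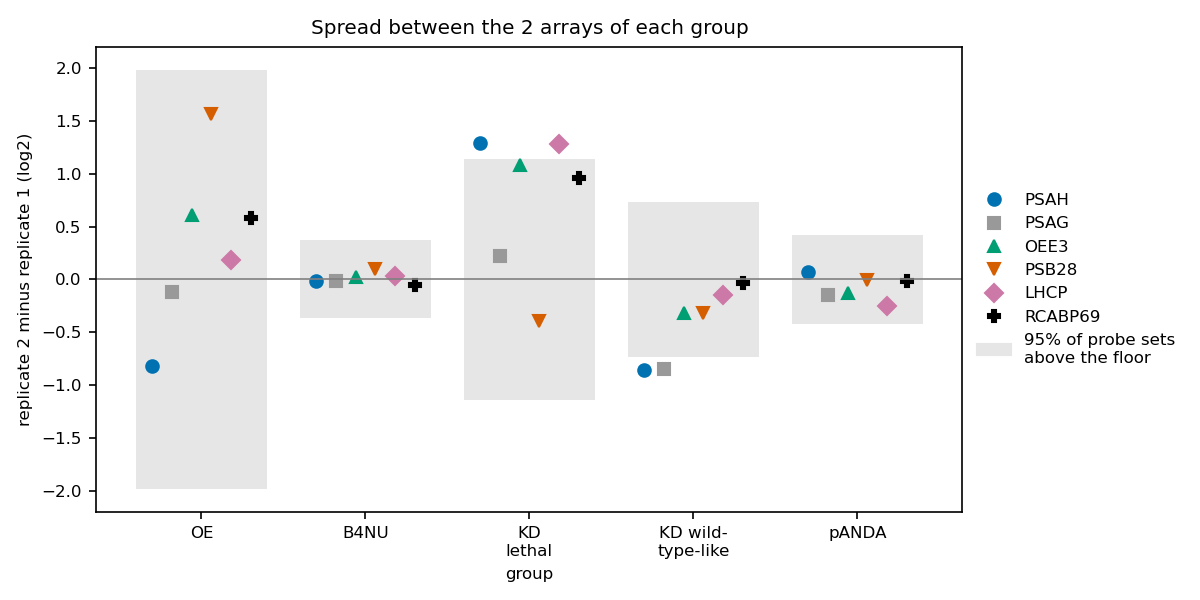
Log2 signal of replicate 2 minus replicate 1 (vertical axis) for the 6 genes in each group (horizontal axis), with grey bars for the range that held 95% of the 19367 probe sets whose mean was above the floor. PSAH and LHCP exceed the bar in KD lethal (1.29 and 1.28 against 1.14), and PSAH and PSAG in KD wild-type-like.

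Across the 8 arrays other than KD lethal, OEE3, PSB28, LHCP and RCABP69 correlated with each other at Pearson r of 0.78 to 0.99. For 4 of these 6 pairs this rests on the OE arrays: over the 6 arrays of B4NU, KD wild-type-like and pANDA, they had r below 0, down to -0.52 for OEE3 and RCABP69. The pairs PSB28 with RCABP69 (0.91) and OEE3 with LHCP (0.84) kept a high r there. PSAH correlated with the same 4 genes at -0.21 to 0.17 over the 8 arrays, but over the 6 arrays at 0.89 with OEE3, 0.60 with LHCP, -0.21 with PSB28 and -0.37 with RCABP69. These values are descriptions, since the arrays fall into groups and into the 2 normalization sets.

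Other photosystem and antenna genes were searched for by symbol and synonym, not by protein description. Of the 22 found, 19 are plastid genes, and 1 was paired with probe sets. This was CAB2R (LOC4324599), a further chlorophyll a/b-binding protein gene, with 2 probe sets. The brighter read 11.03 and 10.25 in KD lethal, against 12.80 and 12.93 in pANDA, and was called lower (4.68-fold, limma adjusted p = 0.024). The other read 9.24 and 9.09 in KD lethal, against 12.15 and 12.01 in pANDA, 7.54-fold lower (limma adjusted p = 0.000605). Both CAB2R probe sets thus fell in KD lethal. The second has the same suffix as the RCABP69 probe set, so related antenna genes may add to its signal too. In OE the brighter probe set read 11.72 and 12.81, against 12.81 and 12.85 in B4NU, and was not called (limma adjusted p = 0.661).

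The genes most like the average of the 6 over the 10 arrays, among 2307 probe sets of other named genes, were CAO (LOC4349433), which encodes chlorophyllide a oxygenase (r = 0.992), RBCS (LOC4351966), the small subunit of Rubisco, on a probe set other than its brightest (0.992), PETC (LOC4343570), the Rieske protein of the cytochrome b6f complex (0.991), GS2 (LOC4337272), a glutamine synthetase (0.989), and GDCSH (LOC4349114), a glycine decarboxylase subunit (0.988). The KD lethal arrays lie apart from the others and weigh heavily in such an r, which is given as a description. Without them it was 0.85 for RBCS to 0.95 for PETC over 8 arrays. The closest gene to each single gene was OsTrxm5, an m-type thioredoxin gene, for PSAH (0.990), PETC for OEE3 (0.989), OsITPK3 for PSB28 (0.988), ADI1, listed as a ferredoxin gene, for LHCP (0.987) and GS2 for RCABP69 (0.994). For PSAG it was UGD5, a UDP-glucose dehydrogenase gene, at 0.905.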

How the data were processed

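The authors deposited a single table with a log2 signal for every probe set and array. GCOS and version 1.4.1.46 of Affymetrix Expression Console are named per the submitters' processing notes. The method of summarization and normalization was not given in the sources used here, and the log2 scale was taken from the range of the values. Per the labels' protocols, labelling used 500 ng of total RNA and growth was at 28 °C.

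Of 57381 probe sets, 123 were controls and were dropped, and the values were used without further normalization. In the platform annotation 22436 probe sets have a single gene, 95 have several and 34727 have no name here. RefSeq's gene table for assembly ASM3414082v1 served for names only. Where a gene has several probe sets, the one with the highest mean stands for it.

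limma 3.58.1 (R 4.3.3) was fitted to all 10 arrays with a coefficient for each group. lmFit and eBayes were run with no trend. There were 5 residual degrees of freedom, and Benjamini-Hochberg adjustment ran over 57258 probe sets. The model had been tested on simulated data. OE was set against B4NU, and both KD groups against pANDA. Precision is limited by having 2 arrays in each group. With 1 of them left out, that group added nothing to the estimated spread. Calls in such fits are therefore no measure of how firm a result is. The replicates are biological by their labels, which do not say that equal numbers pair samples, and no pairing was used in the main fit. Replicate differences of the groups correlated from -0.57 (OE with KD lethal) to 0.31 (B4NU with KD lethal).

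The genes and lists were chosen with earlier results of these data known. Named beside the 6 genes are, by rule, other photosystem and antenna genes found by symbol, the 5 genes most like the average of the 6, the closest to each, and tissue markers. The difference of the OE and KD lethal effects was added after seeing the data. Alternatives were other sets of arrays, normalizations, variance priors, filters, controls, a replicate block and the other PSAG probe set.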

Additional observations from a re-analysis of the deposited data

Results flagged for a closer look

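The KD lethal and KD wild-type-like seedlings differed in their distance from pANDA, by the direct test between them. KD lethal minus KD wild-type-like was -3.71 for PSAH, -3.45 for OEE3, -4.01 for PSB28, -2.44 for LHCP and -4.14 for RCABP69 (log2, limma adjusted p of 0.0017 to 0.0175). These genes are drawn to attention because 2 groups set against the same control differed. The difference of effects between OE and KD lethal, each against its own vector, was 3.59 for RCABP69 (limma adjusted p = 0.0159). Groups of 2 arrays are too small to look for single outlying arrays.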

How the results depend on the processing

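The falls in KD lethal kept their direction under every alternative tried, from -4.69 to -3.74 for RCABP69, -4.39 to -3.59 for PSB28, -4.37 to -3.07 for PSAH, -4.04 to -2.96 for OEE3 and -3.12 to -1.83 for LHCP against pANDA. Of the 6 genes, 5 were called; this was 3 to 5 when 1 array was left out and 1 with only the 4 arrays compared, a fit with fewer samples. Against KD wild-type-like 5 were called, 4 to 5 with 1 array left out, and 0 with only the 4 arrays. In OE 0 were called, 0 to 1 with 1 array left out, 1 without OE replicate 1 and KD lethal replicate 2, and 1 with the other vector as control. Between B4NU and pANDA 0 were called, 1 without these 2 arrays and 3 with only the 4 arrays. In KD wild-type-like 0 were called throughout. Of all 57258 probe sets, 7865 were called in OE with the other vector as control, and 19228 between the vectors with only the 4 arrays. With a replicate block 0 were called in OE, 5 in KD lethal against pANDA, 0 in KD wild-type-like against pANDA, 5 in KD lethal against KD wild-type-like and 0 for the vectors, so it changed no count of genes. Crossed pairings, added after seeing the data because replicate differences correlated at -0.24 between OE and B4NU and -0.29 between the KD groups, gave 0 and 5. Over the 57258 probe sets the calls ran from 17 to 12772 in OE (802), 2786 to 12596 in KD lethal (7000), 20 to 5756 in KD wild-type-like (139), 1191 to 12345 between the KD groups (6408) and 1777 to 19228 between the vectors (5610).

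Signs turned in small differences that were not called. Leaving out 1 array at a time, PSAH in OE ran from -0.73 (without OE replicate 1) to 0.085 (without OE replicate 2) and PSAG from -0.070 to 0.051 likewise. In KD wild-type-like, PSAH ran from -0.44 to 0.42, PSAG from -0.018 to 0.83 and OEE3 from -0.21 to 0.10 (without KD wild-type-like replicates 1 and 2), and LHCP from -0.16 to 0.087 (without pANDA replicates 2 and 1). Between the KD groups PSAG ran from -0.40 to 0.44 (without KD wild-type-like replicates 2 and 1), and between the vectors LHCP ran from -0.036 to 0.21 (without pANDA replicates 2 and 1). Against the other vector, PSAH in OE was 0.020, PSAG in OE 0.39, PSB28 in KD wild-type-like 0.42 and RCABP69 there 0.096. Against both vectors, PSAG in OE was 0.19, PSB28 in KD wild-type-like 0.12 and RCABP69 there 0.0085. With quantile normalization, PSAG in OE was 0.27, OEE3 in KD wild-type-like 0.0033, PSAG between the KD groups -0.061 and LHCP between the vectors -0.092. Without OE replicate 1 and KD lethal replicate 2, PSAG between the KD groups was -0.089. The cause of these turns was not tested. Precision is limited by 2 arrays per group, and the second PSAG probe set was at the floor in every group.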
